A study of Mus musculus with 6 samples.

Results

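The 31 genes described here encode the stress sensors, chaperones, degradation machinery and translocation channel of the endoplasmic reticulum (ER). They were chosen by name, as a fixed list of ER chaperone, ER-associated degradation and stress sensor genes, and matched by mouse Entrez identifier to the 24454 genes of the deposited table. All 31 were found, and all 31 were among the 12642 genes with at least 10 normalized counts in at least 3 libraries, so no member was lost to a filter on low values. They were compared between 3 wild-type (WT) and 3 Stat3β transgenic (Stat3β TG) samples of mouse leukaemic blasts. Both groups started from fetal liver cells on a C57BL/6 background, transformed with a retrovirus carrying the fusion oncogene MLL-AF9 and transplanted into NSG mice (NOD.Cg-PrkdcscidIl2rgtm1Wjl/SzJ), immunodeficient hosts without mature lymphocytes that keep myeloid cells. WT donors were wild-type littermates, and Stat3β TG donors carried the Mx1-Cre recombinase and a Stat3β transgene that Cre switches on, so effects of Cre and of the transgene cannot be told apart. The Mx1 promoter answers to interferon, so 100 µL of poly(I:C) at 2 mg/mL was injected 4 weeks after transplantation, and the treatment protocol is the same text for all 6 samples. Sick recipients were killed at 6 weeks, MLL-AF9+ blasts (Venus+ in the series' design) were sorted from bone marrow, and their total RNA was sequenced. Stat3β is the truncated isoform that alternative splicing makes from STAT3, a transcription factor, and the series asks how it bears on acute myeloid leukaemia. Separate donors or recipients are not stated for the replicates, so a p-value measures only the spread between these samples.

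Secreted and membrane proteins enter the ER through the SEC61 channel, fold there with the help of chaperones and disulphide isomerases, and are pulled back to the cytosol for destruction when folding fails. When unfolded proteins build up, the membrane sensors IRE1α (Ern1), PERK (Eif2ak3) and ATF6 start the unfolded protein response: IRE1α splices the Xbp1 mRNA into a form that encodes an active transcription factor, ATF6 is cut to release a factor, and PERK slows translation. XBP1 and cleaved ATF6 then raise transcription of chaperone and degradation genes. Plasma cells and eosinophil precursors are known to need XBP1. Gene-level counts do not separate spliced from unspliced Xbp1 and say nothing of sensor activity.

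What many of these genes share in their promoters is the ER stress response element (ERSE), in which 9 free bases separate CCAAT from CCACG, and to which the factor NF-Y and ATF6 or XBP1 bind. RefSeq promoter windows (GRCm38.p6, 250 bases before to 50 after the gene start) were at hand for 25 of the 31 genes, and not for Atf6, Hyou1, Hspa13, Manf, Derl1 and Sec61a1. The Edem1 window (chr6:108828391-108828640 before its start) lies inside the RefSeq gene span given further on, so it covers a start downstream of the first one. An exact ERSE on either strand was found in 9 of the 25 (36.0%), against 37 of all 27025 genes with a window (0.137%) and 15 of the 10108 of these that were tested for expression (0.148%). The shorter ERSE-II, with 1 free base between ATTGG and CCACG, has CCAAT read on the other strand and shares the CCACG letters with ERSE. It was found in 2 of the 25 (8.0%) and in 0.0444% of all windows. The UPRE letters TGACGTGG or TGACGTGA were found in 1 of the 25, Hspa5, and in 1.22% of all. ERSE was first defined on promoters of ER chaperone genes, Hspa5 among them, so its frequency here is a description of known biology. The sites are printed because 11 of the 25 genes hold ERSE or ERSE-II, while 14 hold neither. Each runs 5′ to 3′ on the strand that carries the motif, with the fixed letters in capitals and the free spacer in lower case.
Hspa5: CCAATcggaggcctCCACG
Hsp90b1, distal: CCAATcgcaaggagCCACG
Hsp90b1, proximal: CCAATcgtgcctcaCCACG
Calr: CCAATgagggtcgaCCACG
Canx: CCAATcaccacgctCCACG
Pdia6: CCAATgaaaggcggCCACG
Creld2: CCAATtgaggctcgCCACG
Dnajc3: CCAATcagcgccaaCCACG
Syvn1: CCAATcggcggtagCCACG
Derl3: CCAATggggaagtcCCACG
Herpud1, ERSE-II: ATTGGgCCACG
Dnajb11, ERSE-II: ATTGGcCCACG
The fixed letters are the same by construction, and the 9-base spacers differ between genes. Distances count back from the gene start, with -1 the last base before it. The Hspa5 site lies at -65 to -47, that of Syvn1 closest to the start at -44 to -26, and the distal Hsp90b1 site farthest, at -212 to -194. The proximal Hsp90b1 site is at -107 to -89. The Pdia6 site is at -98 to -80, Dnajc3 at -105 to -87, Creld2 at -126 to -108, Canx at -145 to -127, Derl3 at -156 to -138 and Calr at -162 to -144. The Herpud1 ERSE-II lies at -52 to -42, while that of Dnajb11 lies just inside the transcript, at bases 8 to 18 after the start. In Calr, Derl3, Creld2 and the proximal Hsp90b1 site the motif runs on the strand opposite to the gene.

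**Figure D1:**
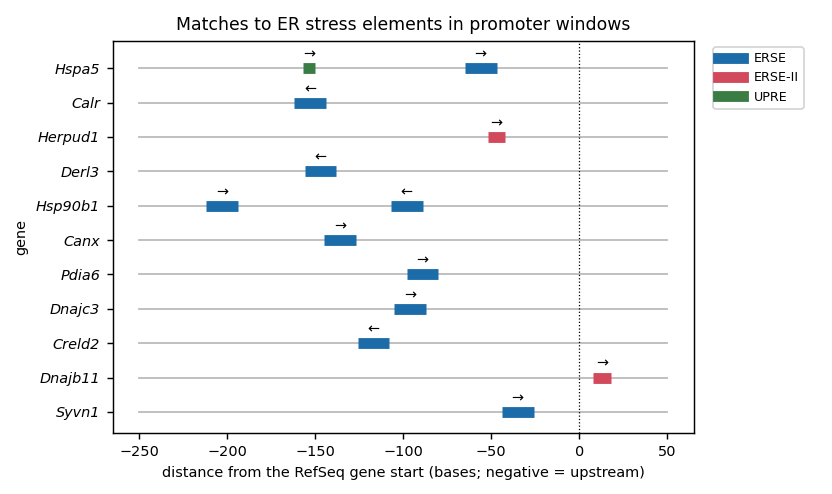
Position of exact matches to ERSE, ERSE-II and UPRE in the promoter windows of the 11 ER genes that hold one, as distance in bases from the RefSeq gene start (x axis, dotted line at the start); arrows give the strand relative to the gene. Every ERSE lies upstream of the start, between -212 and -26.

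The promoters of 3 genes are shown whole up to the gene start, for the chaperone BiP (Hspa5), on which the element is best known, and for Syvn1 and Xbp1, whose groups did not overlap in the expression data. They run 5′ to 3′ on the gene's strand, which is plus for all of them, in GRCm38.p6, at chr2:34771840-34772089, chr19:6046326-6046575 and chr11:5520391-5520640. Capitals mark ERSE and, in Hspa5 only, the UPRE letters that precede it.
Hspa5: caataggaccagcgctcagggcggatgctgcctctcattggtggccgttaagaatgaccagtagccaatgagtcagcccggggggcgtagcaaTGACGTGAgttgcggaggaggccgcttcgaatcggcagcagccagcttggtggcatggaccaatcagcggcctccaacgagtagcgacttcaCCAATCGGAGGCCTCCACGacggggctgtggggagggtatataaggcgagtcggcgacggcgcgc
Syvn1: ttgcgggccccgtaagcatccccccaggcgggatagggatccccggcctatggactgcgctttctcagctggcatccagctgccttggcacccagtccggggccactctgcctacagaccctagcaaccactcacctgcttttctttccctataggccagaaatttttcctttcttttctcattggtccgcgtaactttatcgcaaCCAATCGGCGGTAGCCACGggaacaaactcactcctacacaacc
Xbp1: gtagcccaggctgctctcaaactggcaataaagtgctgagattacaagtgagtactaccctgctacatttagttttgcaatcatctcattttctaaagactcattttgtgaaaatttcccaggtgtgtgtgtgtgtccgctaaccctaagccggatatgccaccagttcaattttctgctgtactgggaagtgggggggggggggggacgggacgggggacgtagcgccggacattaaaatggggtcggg
The Xbp1 window holds none of the letters searched, which says only that they are not in these bases. Of the 11 genes with ERSE or ERSE-II, 10 had a higher mean log2 level in Stat3β TG and 2 had groups that did not overlap, both above WT. Of the 14 with a window and neither element, 10 were higher and 3 had groups that did not overlap, 2 of them above and 1 below WT; Edem1 is counted here. Of the 6 with no window, 6 were higher and 2 had groups that did not overlap, both above. Of all genes tested, 51.4% were higher, 5.87% lay wholly above and 4.92% wholly below WT. The medians of the log2 fold changes were 0.18, 0.066 and 0.32 in the same order, and no test of these differences was made.

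The libraries held 21809788 to 51934498 recovered reads, with Stat3β TG 1 and Stat3β TG 3 the deepest, and the upper limit for a count of 0 (3 reads) equalled 1.69 to 4.22 normalized counts, for counting error only. They did not separate by group alone. On the first principal component (47.4% of the variance) WT 1 lay with the Stat3β TG libraries and apart from WT 2 and WT 3. Xist was high in WT 1 and WT 3 (42699 and 45196 normalized counts), and a sum of 4 Y-linked genes (Uty, Kdm5d, Ddx3y, Eif2s3y) was high in WT 2 (11012) and in every Stat3β TG library (8781 to 9465), so the sexes of the cells differ within WT and, for 2 of 3 WT libraries, between the groups. Stat3 itself, whose gene-level value sums both splice forms, had a log2 fold change of -0.23 (standard error 0.26, limma adjusted p = 0.771). All 11 markers of the labelled myeloid blasts were present, with Hoxa9 at 7147 to 9288 and Meis1 at 2586 to 4417 normalized counts over the 6 libraries.

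Across the 31 ER genes the Stat3β TG libraries were more often the higher ones, but no gene passed the test over all genes. On the log2(normalized count + 1) scale 26 members had a higher mean in Stat3β TG and 5 a lower one, with a median log2 fold change of 0.13, while 51.4% of all genes tested were higher and their median was 0.012. The limma test, with Benjamini-Hochberg adjustment over all 12642 genes, passed 0 of 31 members (0 of all genes, 0.0%), and the smallest adjusted p of a member was 0.668. At an unadjusted p under 0.05 there were 7 members, against 6.1% of all genes. Higher in Stat3β TG among them were Edem1, Manf, Syvn1, Hyou1, Xbp1 and Hspa13 (6 of 31, or 19.4%, against 3.56% of all genes), and lower was Ern1 (1 of 31, against 2.54%). On the recovered reads edgeR passed 0 members (0.0% of all genes) and DESeq2 0 (0.134%). Each had the same 7 genes at an unadjusted p under 0.05, against 6.15% of all genes by edgeR (2.58% higher, 3.57% lower) and 7.67% by DESeq2 (3.33% higher, 4.34% lower). The 7 groups that did not overlap were 6 with every Stat3β TG library above every WT library (19.4% of members, against 5.87% of all genes), which were Xbp1, Hyou1, Manf, Dnajc3, Edem1 and Syvn1, and 1 with every Stat3β TG library below, Ern1 (3.23%, against 4.92%). These members were listed with earlier results of the same data known, so the counts describe them and are no test of the list.

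**Figure D2:**
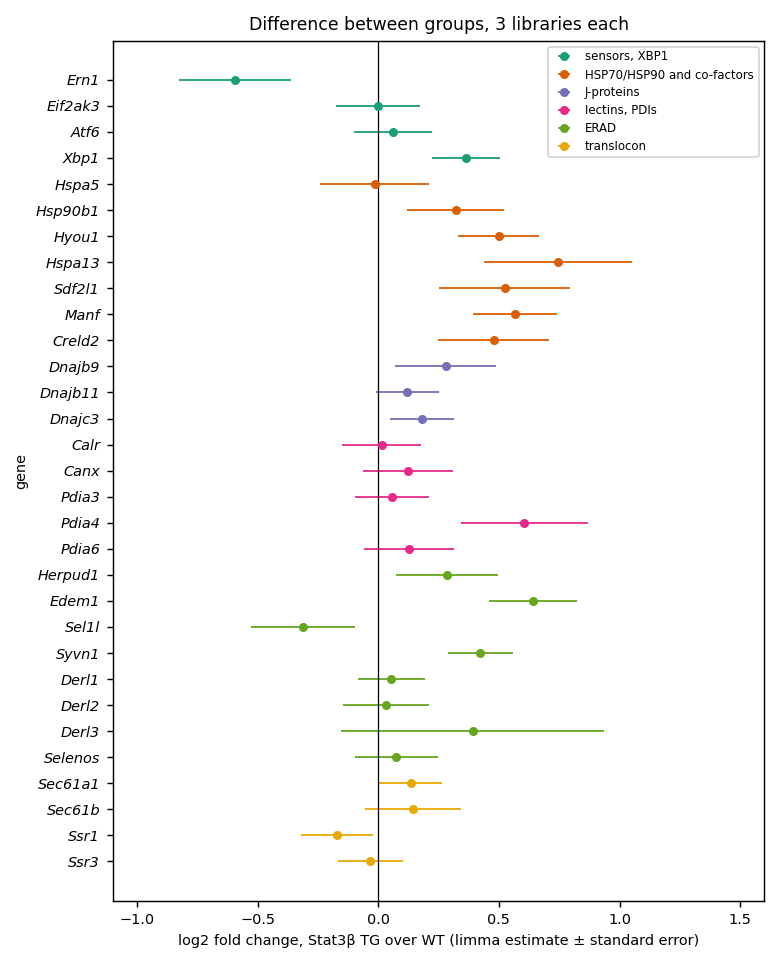
Log2 fold change (Stat3β TG over WT) for each of the 31 ER genes (x axis; limma estimate ± standard error, 3 libraries per group), coloured by role. Most points lie right of 0, from 0.36 to 0.74 for the 6 higher genes at an unadjusted p under 0.05, and Ern1 lies farthest left at -0.59.

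These counts varied with the libraries used. At an unadjusted p under 0.05, leaving out WT 1 gave 10 members (27.0% of all genes), WT 2 gave 4 (3.12%) and WT 3 gave 6 (3.15%). Leaving out Stat3β TG 1 gave 5 (3.0%), Stat3β TG 2 gave 4 (3.48%) and Stat3β TG 3 gave 2 (3.99%). Without WT 1, DESeq2 passed 9 members after adjustment (29.0%), against 16.0% of all genes: Pdia4, Edem1, Manf, Creld2, Hsp90b1, Hspa13 and Hyou1 higher and Ern1 and Sel1l lower, while limma and edgeR passed 0 (smallest adjusted p = 0.0524 and 0.0581; 2.74% and 0.91% of all genes). Without any other library no member passed, where limma and edgeR passed 0.0396% of all genes without WT 2 and 0.0% otherwise, and DESeq2 between 0.0949% and 0.308%. Once the fit held a sex-linked covariate, which sets Stat3β TG against WT 2 alone, 9 members had an unadjusted p under 0.05 (18.7% of all genes) and 0 an adjusted one (0.0158%), and without both WT 2 and WT 3, there were 3 (Xbp1, Syvn1 and Herpud1; 3.82% of all genes). That last fit has 1 WT library, takes its spread from the Stat3β TG libraries alone and assumes that WT varies alike. Groups did not overlap for 15 members without WT 1 and for 15 against WT 1 alone, near the 46.1% and 44.3% of all genes in these settings. The count was 8 without WT 2 (16.2%), 10 without WT 3 (16.2%), and 7, 11 and 8 without Stat3β TG 1, 2 and 3 (19.2%, 18.4% and 20.1%), against 7 (10.8%) with all libraries.

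**Figure D3:**
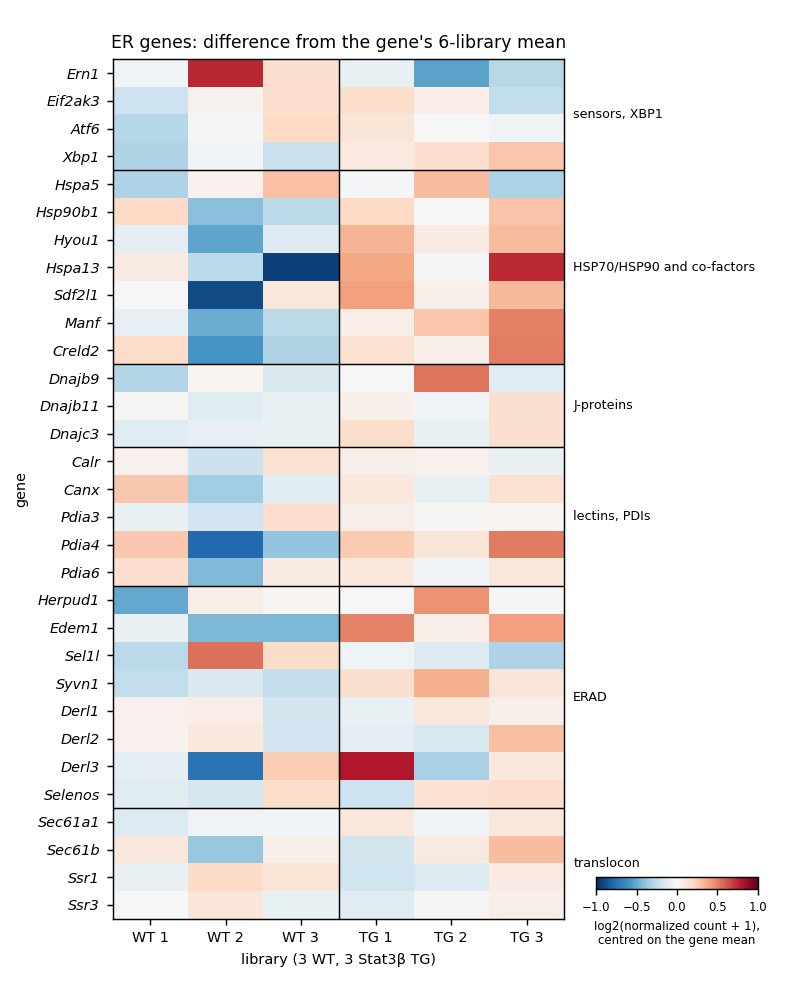
Each ER gene in each library as the difference of log2(normalized count + 1) from the gene's mean over the 6 libraries (colour; red higher, blue lower), grouped by role. WT 2 is the lowest library for 13 genes, among them all 5 lectin chaperones and disulphide isomerases, and Ern1 and Sel1l are highest there.

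The members span a wide range of abundance, compared here as normalized counts per kilobase of exon (exons of each gene merged, GENCODE M21). The calcium-binding lectin chaperone gene Calr led, at 15714 ± 2033 per kilobase in WT, and 15795 ± 704 with the transgene (mean ± SD over 3 libraries each), followed by Hspa5 (9343 ± 1915 and 9255 ± 2000.4), Hsp90b1 (6717 ± 1564 and 8273 ± 832) and Pdia3 (7123 ± 923 and 7366 ± 139). Calr stood above Hspa5 by more than their spread, while the intervals of Hspa5, Hsp90b1 and Pdia3 met in WT. The sensors were far lower, with Atf6 at 502 ± 83.9 and 519.6 ± 30.2, Eif2ak3 at 359 ± 46.4 and 359.7 ± 53.4 and Ern1 at 283 ± 84.1 and 184 ± 29.2. Derl3, a derlin abundant in secretory cells, was last of the 31 at 8.49 ± 2.94 and 11.5 ± 4.82, below its relatives Derl1 (1404 ± 129.6 and 1456 ± 95.8) and Derl2 (194 ± 20.6 and 199.8 ± 36.2). Merged exons include rarely used ones, such as long 3′ ends, so a level per kilobase is understated where these are long.

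**Figure D4:**
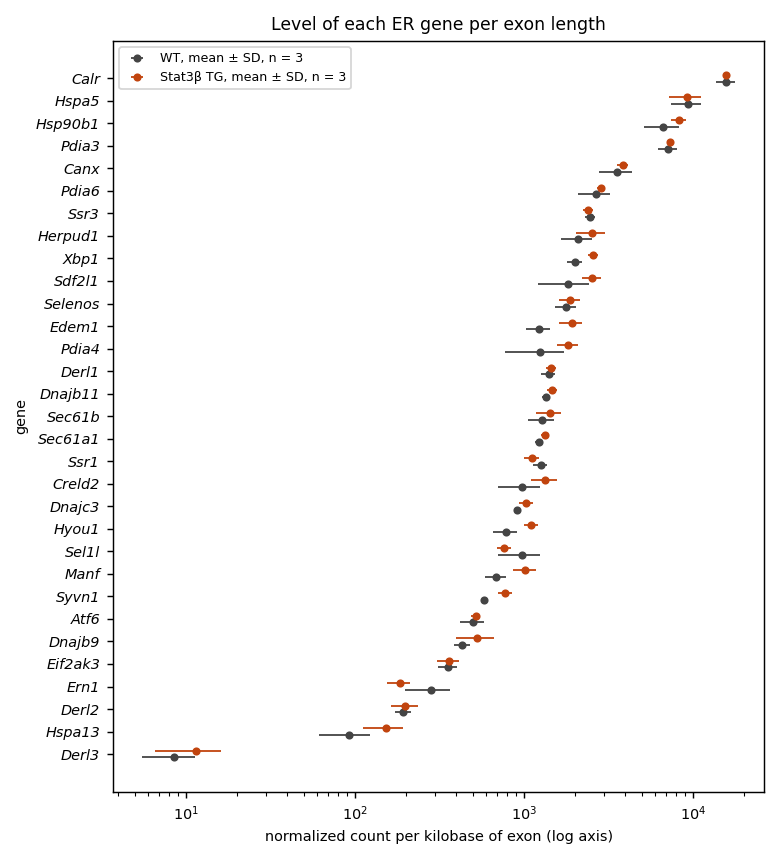
Normalized counts per kilobase of exon (x axis, log scale) for the 31 ER genes in WT (grey) and Stat3β TG (orange), as mean ± SD of 3 libraries. Calr, Hspa5, Hsp90b1 and Pdia3 lead in both groups, and Derl3 is the lowest in both.

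Among the sensors, Ern1 and its substrate Xbp1 stood on opposite sides. Ern1, which encodes the kinase and endoribonuclease IRE1α (chr11:106397620-106487796, minus strand), was at 1799, 3096 and 2052 normalized counts in WT 1 to 3 and at 1741, 1265 and 1514 in Stat3β TG 1 to 3. Every Stat3β TG library lay below every WT library, though Stat3β TG 1 and WT 1 were close and WT 2 stood well above the rest. The means were 2316 ± 688 (WT) against 1507 ± 239 (Stat3β TG) normalized counts (SD, n = 3 each), a log2 fold change of -0.59 (standard error 0.23, limma adjusted p = 0.668). Without WT 2 it was -0.36, and against WT 1 alone -0.27. Xbp1 (chr11:5520641-5525993, plus strand) was at 5977, 7242 and 6327 normalized counts in WT 1 to 3 and at 7877, 8299 and 8941 in Stat3β TG 1 to 3. Its 3 Stat3β TG libraries were all above the WT libraries, 1.29-fold by limma's estimate (log2 0.36, standard error 0.14, limma adjusted p = 0.668). The estimate was 0.44 without WT 2, and with the sex-linked term 0.21, where WT 2 is the closest WT library to Stat3β TG.

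The other sensors showed no such separation. Eif2ak3, the gene of the translation-slowing kinase PERK, was at 1865, 2202 and 2420.3 normalized counts in WT 1 to 3 and at 2435, 2256 and 1811 in Stat3β TG 1 to 3, and the groups overlapped fully (log2 fold change 0.00, standard error 0.17). Atf6 was at 3848, 4663 and 5396 normalized counts in WT 1 to 3 and at 5109, 4712 and 4569.8 in Stat3β TG 1 to 3, with WT 1 the lowest and WT 3 the highest library (log2 0.061, standard error 0.16).

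**Figure D5:**
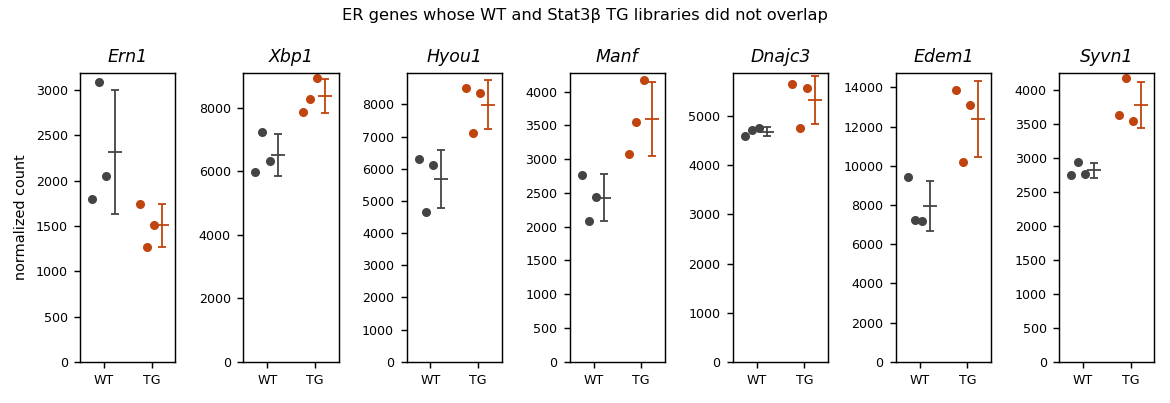
Normalized counts (y axis, from 0) of the 7 ER genes whose groups did not overlap: points are WT 1 to 3 and Stat3β TG 1 to 3 from left to right, and bars are mean ± SD (n = 3). Xbp1, Hyou1, Manf, Dnajc3, Edem1 and Syvn1 are higher in every Stat3β TG library and Ern1 is lower; the gap is narrow for Dnajc3 and Ern1.

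The main lumenal chaperone and its helpers differed from each other. Hspa5, which encodes BiP, the HSP70 of the ER that also holds the sensors inactive, was at 31237, 39884 and 47419.7 normalized counts in WT 1 to 3 and at 38253, 48006 and 31156 in Stat3β TG 1 to 3. Its groups overlapped completely, with the highest and the lowest library both in Stat3β TG (log2 fold change -0.015, standard error 0.23). Hsp90b1, the gene of the HSP90 paralog GRP94, was at 34205, 22209.96 and 24839 normalized counts in WT 1 to 3 and at 34078, 29699 and 36291 in Stat3β TG 1 to 3. WT 1 matched the Stat3β TG libraries and WT 2 and WT 3 were lower (log2 0.32, standard error 0.20), so the difference was -0.041 against WT 1 alone.

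The co-factor genes Manf, Hyou1, Hspa13, Sdf2l1 and Creld2 had log2 fold changes from 0.48 to 0.74, and none passed the adjusted threshold. Together with Hspa5 and Hsp90b1 they make 7 genes, of which 6 were higher, with a median of 0.50. An unadjusted p under 0.05 was found for 3 of the 7, all higher, against 3.56% of all genes. Manf (chr9:106888753-106891938, minus strand), which encodes a secreted and ER-resident partner of BiP, was at 2769, 2077 and 2439 normalized counts in WT 1 to 3 and at 3075, 3549.7 and 4166 in Stat3β TG 1 to 3. All Stat3β TG libraries lay above all WT libraries, 1.48-fold by limma's estimate (log2 0.57, standard error 0.17, limma adjusted p = 0.668). Hyou1 (chr9:44379490-44392369, plus strand), the gene of a large HSP70-like chaperone that acts as nucleotide exchange factor for BiP, was at 6294, 4651 and 6125 normalized counts in WT 1 to 3 and at 8507, 7109 and 8369 in Stat3β TG 1 to 3. The groups again did not overlap (1.41-fold, log2 0.50, standard error 0.17, limma adjusted p = 0.668), and against WT 1 alone the log2 value was 0.34.

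The remaining co-factors overlapped between groups. Hspa13, a microsomal HSP70-like gene of low abundance, was at 832, 655 and 411 normalized counts in WT 1 to 3 and at 1026, 777 and 1320.3 in Stat3β TG 1 to 3. Stat3β TG 2 lay below WT 1 and Stat3β TG 3 stood highest, and the fold of 1.67 (log2 0.74, standard error 0.31, limma adjusted p = 0.668) was the largest of the 31. Without WT 3 the log2 value was 0.46. Sdf2l1, which encodes a partner of the co-chaperone DNAJB11, was at 2330.2, 1249 and 2515 normalized counts in WT 1 to 3 and at 3101, 2409.6 and 2919.8 in Stat3β TG 1 to 3. WT 2 was far below every other library, and the log2 fold change of 0.52 was 0.21 without it. Creld2, a disulphide isomerase-like gene induced by ER stress, was at 1739, 1017 and 1243 normalized counts in WT 1 to 3 and at 1705, 1593 and 2185 in Stat3β TG 1 to 3. WT 1 lay inside the Stat3β TG range and WT 2 and WT 3 below it (log2 0.48, and 0.058 against WT 1 alone).

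The 3 ER J-protein genes, whose products bring substrates to BiP and stimulate its ATPase, were all slightly higher on average in Stat3β TG. Dnajc3, whose product P58IPK also inhibits PERK (chr14:118937932-118981702, plus strand), was at 4591, 4722 and 4755 normalized counts in WT 1 to 3 and at 5649.97, 4769.9 and 5569 in Stat3β TG 1 to 3. The groups did not overlap, but Stat3β TG 2 and WT 3 were nearly equal (log2 0.18, standard error 0.13, limma adjusted p = 0.677). Dnajb11 ranged from 4179 to 4579.8 normalized counts in WT and 4467 to 5093 in Stat3β TG (log2 0.12). Dnajb9, a repressor of IRE1α that XBP1 induces, was at 985, 1225 and 1093 normalized counts in WT 1 to 3 and at 1210.04, 1753 and 1111 in Stat3β TG 1 to 3, with Stat3β TG 2 the highest and the other Stat3β TG libraries among the WT values (log2 0.28, standard error 0.21).

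Lectin chaperones and disulphide isomerases were all lowest in WT 2. Calnexin and calreticulin hold glycoproteins until they fold, and the isomerases form and rearrange disulphide bonds. Calr ranged from 38869.8 to 50371 normalized counts in WT and 43156 to 46807 in Stat3β TG (log2 0.015, standard error 0.16), Pdia3 from 19864 to 25536 and 22820.3 to 23623 (log2 0.056, standard error 0.15), Canx from 13629 to 20896 and 16466 to 19203 (log2 0.12, standard error 0.19) and Pdia6 from 7599.6 to 11613 and 10138 to 11111 (log2 0.13, standard error 0.19). In each of these the Stat3β TG values lay inside the WT range, which was the wider one. Pdia4, an isomerase that pairs with BiP, differed more, at 4265, 2058 and 2682 normalized counts in WT 1 to 3 and at 4237, 3851 and 5078 in Stat3β TG 1 to 3. WT 1 lay inside the Stat3β TG range while WT 2 and WT 3 lay below it (1.52-fold, log2 0.61, standard error 0.26, limma adjusted p = 0.668). Its estimate was 1.08 with the sex-linked term and 0.032 against WT 1 alone.

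ER-associated degradation (ERAD) held the member with the smallest p. Edem1 (chr6:108824045-108859356, plus strand), which encodes a lectin that routes misfolded glycoproteins to the retrotranslocation complex, was at 9419.7, 7219 and 7209 normalized counts in WT 1 to 3 and at 13881, 10195 and 13115 in Stat3β TG 1 to 3. Every Stat3β TG library lay above every WT library, 1.56-fold by limma's estimate (log2 0.64, standard error 0.18, limma adjusted p = 0.668; DESeq2 adjusted p = 0.269). Without any single library the log2 value stayed between 0.55 and 0.78. Syvn1 (chr19:6046576-6053718, plus strand), the gene of the ubiquitin ligase HRD1, was at 2739, 2940.2 and 2758 normalized counts in WT 1 to 3 and at 3626, 4168 and 3534 in Stat3β TG 1 to 3. WT libraries lay close together and Stat3β TG libraries all above them (1.34-fold, log2 0.42, standard error 0.13, limma adjusted p = 0.668). The value was 0.46 against WT 1 alone and 0.36 against WT 2 alone.

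Sel1l, whose product is the partner that stabilizes HRD1, did not follow Syvn1. It was at 6064, 10701 and 8292 normalized counts in WT 1 to 3 and at 7114, 6692 and 5907 in Stat3β TG 1 to 3, highest in WT 2 and lower in WT 1 than in Stat3β TG 1 and Stat3β TG 2 (log2 -0.31, standard error 0.22). Herpud1, which encodes a membrane adaptor of the HRD1 complex, was at 3719, 5533 and 5379.6 normalized counts in WT 1 to 3 and at 5273, 7248 and 5240.1 in Stat3β TG 1 to 3, with WT 1 the lowest and Stat3β TG 2 the highest library (log2 0.29, standard error 0.21). The derlins, channel-like proteins of the complex, overlapped between groups: Derl1 ranged from 4178 to 5125 normalized counts over the 6 libraries (log2 0.054), Derl2 from 1376 to 1942 (log2 0.031) and the scarce Derl3 from 10.8 to 33.5 (log2 0.39, standard error 0.54). Selenos, a selenoprotein that links derlins to the ATPase VCP, ranged from 2334 to 3058 (log2 0.075).

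Of the 4 translocon genes 2 were higher and 2 lower. Sec61a1, the pore-forming subunit gene, was at 7856, 8415 and 8496 normalized counts in WT 1 to 3 and at 9363, 8485 and 9339 in Stat3β TG 1 to 3, with Stat3β TG 2 just under WT 3 (log2 0.13, standard error 0.13). Sec61b, a small subunit, ranged from 1314 to 2113 over the 6 libraries (log2 0.14). The genes of the translocon-associated complex were slightly lower on average in Stat3β TG, with Ssr1 at 11747 to 14062 in WT and 10726 to 13047 in Stat3β TG (log2 -0.17, standard error 0.15) and Ssr3 at 9666 to 11053 and 9324 to 10577 (log2 -0.032, standard error 0.14). The highest library exceeded the lowest by 1.19-fold in Ssr3 and 1.19-fold in Sec61a1, against a median of 1.53-fold over the 31 members and 3.21-fold in Hspa13.

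The low values of WT ER genes were spread unevenly over its libraries. WT 2 was the lowest of the 6 libraries for 13 of the 31 genes (41.9%), against 26.0% of all genes tested, and WT 2 was the highest for 4 (12.9%, against 24.0%). Stat3β TG 3 was the highest for 9 (29.0%, against 17.3%) and Stat3β TG 1 for 7 (22.6%, against 16.8%), which are also the deepest libraries, and Stat3β TG 2 for 5 (16.1%, against 9.44%). The part of depth in this was not tested. For the chaperones and co-factors of the lumen, the median difference from the 6-library mean on the log2 scale was 0.00047, -0.50 and -0.26 in WT 1 to 3 and 0.20, 0.054 and 0.33 in Stat3β TG 1 to 3. The corresponding values for lectin chaperones and isomerases were 0.17, -0.34 and 0.076 in WT 1 to 3 and 0.11, 0.0092 and 0.11 in Stat3β TG 1 to 3. WT 1 was thus just below the Stat3β TG values in the first group and above them in the second, where WT 3 lay among them. By single genes, WT 1 was within the Stat3β TG range for 16 of 31 members (51.6%, against 55.7% of all genes), below it for 12 (38.7%, against 22.9%) and above it for 3 (9.68%, against 21.4%), and it was the lowest library for 7 (22.6%, against 14.4%). WT 2 was below the range for 19 (61.3%, against 36.8%) and WT 3 for 15 (48.4%, against 34.7%).

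Other genes of the ER, from lists that do not hold the 31, are given for comparison, with no test of a difference from the members. Of 103 listed, 99 were tested, with 56 higher and 43 lower (56.6% higher, against 51.4% of all genes), a median log2 fold change of 0.011, 0 past the adjusted limma threshold (edgeR 0, DESeq2 0) and 4 at an unadjusted p under 0.05 (edgeR 4, DESeq2 6), or 4.04% against 6.1% of all genes. The 4 were Fkbp11, Rnf139 and Rpn2, lower, and Srprb, higher. Their groups did not overlap for 5 genes above WT (5.05%, against 5.87%) and 9 below (9.09%, against 4.92%). For each list the genes with the smallest p are given.

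In the PERK branch, 6 of 10 genes were higher (0 by limma after adjustment, 0 at an unadjusted p under 0.05). The PERK-branch factor gene Atf4 ranged from 17288 to 20266 normalized counts in WT and 13169 to 22879 in Stat3β TG, and Ddit3, which encodes the pro-apoptotic factor CHOP, from 575 to 1137 and 516 to 1383, both chosen for their role. Ppp1r15a, the gene of GADD34, which restores translation, ranged from 4325 to 6789 and 2318 to 6874. Stat3β TG 2 held the highest value in all 3 of these, and Stat3β TG 3 the lowest. Chac1, a glutathione-degrading enzyme gene, was scarce, at 20.7, 14.9 and 0 normalized counts in WT 1 to 3 and at 50.9, 41.9 and 32.02 in Stat3β TG 1 to 3, and Nck1, an adaptor gene, was at 904 ± 490.4 (WT) against 1262 ± 210.3 (Stat3β TG) normalized counts (SD, n = 3 each).

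Of the other ER stress transducers 7 of 10 tested were higher. Creb3l2, an ER-anchored relative of ATF6, was at 204 ± 53.2 (WT) against 346 ± 105 (Stat3β TG) normalized counts (limma adjusted p = 0.668; SD, n = 3 each), Creb3 at 665 ± 288 (WT) against 950.4 ± 75.4 (Stat3β TG) normalized counts and Nfe2l1 at 4096 ± 252 (WT) against 3424 ± 361 (Stat3β TG) normalized counts. Among 19 other chaperones 11 were higher, and Fkbp11, a prolyl isomerase gene of secretory cells, was lower in every Stat3β TG library, at 210.1, 169 and 331 normalized counts in WT 1 to 3 and at 113, 92.3 and 128 in Stat3β TG 1 to 3 (log2 -1.04, standard error 0.35, limma adjusted p = 0.668). It is thus on the other side from Manf and Hyou1. Serp1, which encodes a translocon-associated stress protein, was higher in every Stat3β TG library, at 14612 ± 801 (WT) against 17400.3 ± 681 (Stat3β TG) normalized counts. Lrpap1 was at 3181 ± 394 (WT) against 2626 ± 188 (Stat3β TG) normalized counts, with overlapping groups.

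Other disulphide isomerases and oxidases were higher in 6 of 13. Txndc11 was higher in every Stat3β TG library, at 2080.5 ± 259.6 (WT) against 2475 ± 189 (Stat3β TG) normalized counts. Groups overlapped for Txndc5, at 6771 ± 596 (WT) against 5448 ± 1439.98 (Stat3β TG) normalized counts, and for Pdia5, at 369 ± 84.98 (WT) against 246 ± 90.3 (Stat3β TG) normalized counts (SD, n = 3 each). Other ERAD genes were higher in 13 of 22. The ubiquitin ligase gene Rnf139 was lower in every Stat3β TG library, at 2493 ± 525 (WT) against 1807 ± 52.6 (Stat3β TG) normalized counts (log2 -0.44, limma adjusted p = 0.668). Svip, an inhibitor of ERAD, was at 2267 ± 1403 (WT) against 3422 ± 149 (Stat3β TG) normalized counts and the ligase gene Rnf5 at 1055 ± 692 (WT) against 1543 ± 169 (Stat3β TG) normalized counts. Of 25 tested genes of the translocon, signal peptidase and oligosaccharyltransferase 13 were higher. Rpn2, a subunit gene of the oligosaccharyltransferase, was lower in every Stat3β TG library, at 18179, 21235 and 21954 normalized counts in WT 1 to 3 and at 15408, 16972 and 15546 in Stat3β TG 1 to 3 (log2 -0.35, standard error 0.15, limma adjusted p = 0.668), and so was the glucosidase II subunit gene Prkcsh, at 6238 ± 83.7 (WT) against 5141 ± 253 (Stat3β TG) normalized counts. Srprb, a subunit gene of the signal recognition particle receptor, was at 1178 ± 157 (WT) against 1576 ± 216 (Stat3β TG) normalized counts (limma adjusted p = 0.668).

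Markers of more mature and of other cells differed between the groups in part. Neutrophil granule genes were higher in Stat3β TG in 11 of 11, and their summed level ran from 108969 to 377408 across WT and 388653 to 573014 across Stat3β TG libraries, with WT 2 the lowest library, as it was for many ER chaperones. Monocyte and macrophage markers were higher in 7 of 10 (57426 to 81457 across WT and 76949 to 134126 across Stat3β TG libraries), and primary granule genes in 3 of 5 (103082 to 156032 across WT and 86775 to 179824 across Stat3β TG libraries). Eosinophil markers were higher in 2 of 5 tested. The sum of that list, mostly Prg2, was 9771 to 51523 across WT and 6524 to 12063 across Stat3β TG libraries. For Prg2 itself every Stat3β TG library lay below every WT library, at 4024 to 7055 against 8375 to 36893 normalized counts. Its adjusted p was 0.668 by limma and 0.0018 by DESeq2, which passed 0.134% of all genes. The part of these cell types in the ER gene differences was not tested. In bulk RNA, fewer cells of a type and less RNA per cell cannot be told apart. Markers of B and plasma cells, which are known for high Xbp1, were low except for Cd79b and, in WT 3, Mzb1: Ms4a1 ranged from 0 to 1.34 normalized counts, Tnfrsf17 from 0 to 7.62, Jchain from 0 to 12.05 and Mzb1 from 1.09 to 253, and the list's sum (1319.8 to 1974 across WT and 1339 to 2289 across Stat3β TG libraries) was mostly Cd79b. In T and NK cells Cd3e was at 0 in all 6 libraries. On the mean log2 scale 6 of 6 tested markers were higher, though Cd3g was lower by edgeR (log2 -0.11) and DESeq2 (log2 -0.11). The list summed to 231 to 1747 across WT and 925 to 1302 across Stat3β TG libraries. Nkg7 was its largest member, and WT 1 held the highest sum. Erythroid markers summed to 4707 to 5834 across WT and 3821 to 4609.9 across Stat3β TG libraries, mostly Tfrc. Mast cell and basophil markers summed to 4329 to 6023 across WT and 3679 to 7198 across Stat3β TG libraries. Stromal and endothelial markers summed to 7399.7 to 9241 across WT and 5818 to 7215 across Stat3β TG libraries. That last sum was mostly Pecam1 and Pdgfrb. Of its 4 tested markers 3 were higher in Stat3β TG, and Cdh5 and Kdr were under 10 in every library. Exons of 10 of the 31 members overlap another annotated gene, over at most 15.7% of their exon length (Hsp90b1, with 3 genes), and reads there, with strand handling unstated, could belong to either gene.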

How the data were processed

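Total RNA of 6 sorted blast samples was sequenced; sample titles gave group and replicate number. The submitters' processing notes name GRCm38 (mm10) and the tools STAR, DESeq2 and FastQC. Versions, annotation, counter and strand handling: not given in the sources used here. Values in the deposited table are, for each gene, the authors' normalized counts per library (a non-negative signal). Every value (100% of 146724, tolerance 0.001) was a whole multiple of its library's smallest step, so whole reads were recovered. Symbols and coordinates came from RefSeq GRCm38.p6 (24376 of 24454 IDs matched), and strands and exon lengths from GENCODE M21, which is on the same build.

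Values were analysed as log2(normalized count + 1) for the 12642 genes with at least 10 in at least 3 libraries, with limma 3.58.1 (mean-variance trend, robust, group only, two-sided, Benjamini-Hochberg, threshold 0.05) in R 4.3.3. Recovered reads were tested with edgeR 4.0.16 (quasi-likelihood, TMM) and DESeq2 1.42.0 (Wald). A fold change here is on the log2(value + 1) scale. For low genes it can be understated, or larger than by the tools on reads. The log2 fold change of Chac1 was 2.58 by limma, 1.77 by edgeR and 1.79 by DESeq2. Alternatives varied the pseudocount, filter, scaling, tool, moderation, replicate block and libraries. The scripts were tested on simulated counts. Members and lists were chosen with earlier results of these data known. All 31 members are named, and of each other pathway list the 3 genes with the smallest limma p; Atf4 and Ddit3 were added outside that rule. Sequence windows were used only for genes listed in the RefSeq promoter table.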

Additional observations from a re-analysis of the deposited data

How the results depend on the processing

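The count of 0 members past the adjusted threshold held under every limma and edgeR alternative, and by DESeq2 with all libraries. Leaving out 1 library, an alternative added after seeing the data, DESeq2 passed 9 without WT 1 (16.0% of all genes) and 0 otherwise. The count at an unadjusted p under 0.05 was 7 (6.1% of all genes). With 1 library left out it ran from 2 without Stat3β TG 3 (3.99%) to 10 without WT 1 (27.0%). The count of genes whose groups did not overlap was 7, and 7 to 15 with 1 library left out and 15 against WT 1 alone, where fewer libraries make overlap rarer (46.1% of all genes without WT 1 and 44.3% against WT 1 alone, beside 10.8% with all libraries). The median log2 fold change of the members was 0.13, ranged from 0.099 to 0.19 with 1 library left out and was 0.22 with the sex-linked term; pseudocounts, filters, scaling and tools kept it between 0.13 and 0.15.

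The sign held under all 17 alternatives for 18 of 31 members, Xbp1, Hyou1, Manf, Dnajc3, Edem1, Syvn1 and Ern1 among them. None of the other 13 had an unadjusted p under 0.05 in the fit with all libraries. Their sign changed (log2 fold changes) under quantile normalization for Eif2ak3 (-0.0024) and Calr (-0.013). It changed by edgeR for Eif2ak3 (-0.0044). It changed by DESeq2 for Eif2ak3 (-0.0048) and Calr (-0.00029). It changed without both WT 2 and WT 3 for Hspa5 (0.30), Hsp90b1 (-0.041), Calr (-0.034), Canx (-0.21), Pdia6 (-0.11), Sel1l (0.11), Derl1 (-0.013), Derl2 (-0.026) and Sec61b (-0.034). It changed with the sex-linked term for Eif2ak3 (-0.034), Derl1 (-0.037) and Derl2 (-0.089). With 1 library left out, the ranges that crossed 0 were Eif2ak3 (-0.10 to 0.12), Atf6 (-0.066 to 0.18), Hspa5 (-0.17 to 0.14), Calr (-0.091 to 0.096), Canx (-0.018 to 0.29), Pdia3 (-0.025 to 0.16), Pdia6 (-0.060 to 0.25), Derl1 (-0.025 to 0.11), Derl2 (-0.11 to 0.12), Sec61b (-0.0088 to 0.27) and Ssr3 (-0.076 to 0.021). The causes were not tested.

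Same-numbered libraries of the groups had correlations of their deviations over genes of 0.14, 0.099 and -0.11 for numbers 1 to 3. WT 1 and WT 2 each correlated best with the Stat3β TG library of the same number, and WT 3 with Stat3β TG 2 (0.14). Correlations this small, from 3 libraries per group, cannot show whether the numbers pair the libraries. With the replicate block 0 members passed and 6 had an unadjusted p under 0.05, as 7.39% of all genes did; Xbp1, Ern1 and Hspa13 were not among the 6, and Pdia4 and Sdf2l1 were. The median was 0.13. With 3 libraries per group, small differences are not detectable: standard errors of the members' log2 fold changes ran from 0.13 to 0.54.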

Other observations

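The ratio of Xbp1 to Ern1 normalized counts was 3.32, 2.34 and 3.08 in WT 1 to 3 and 4.52, 6.56 and 5.91 in Stat3β TG 1 to 3. Every Stat3β TG library lay above every WT library. This follows from the groups of Xbp1 and of Ern1 not overlapping, in opposite directions, and adds nothing to it. The pair was chosen after its values were seen, so the ratio is given with no test.

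Sec61g, the third subunit gene of the SEC61 channel, was listed at 1.09 to 11.1 normalized counts over the 6 libraries and was not tested. Sec61a1 ranged from 7856 to 9363 and Sec61b from 1314 to 2113. Annotation and counter are not given, and whether the low Sec61g value reflects expression or counting was not tested. The 3 other listed ER genes that failed the filter on low values were Ern2, the epithelial paralog of Ern1, and the collagen and testis chaperone genes Serpinh1 and Clgn.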
